A study of Homo sapiens with 5 samples.

Results

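Lactylation of lysine 12 of histone H4 (H4K12la) was examined at 4501 genomic regions that lie at the start or end of a protein-coding gene and carried an H4K12la peak in every deposited H4K12la list. The regions were chosen by the presence of deposited peaks, not by peak height. They were found by merging the peaks of the 4 lists wherever they shared at least 1 bp on chromosomes 1 to 22, which gave 180420 merged regions. Of these, 28987 held a peak from all 4 lists, and 4501 of the 28987 (15.5%) overlapped the window 1 kb either side of a protein-coding gene's start or end in GRCh38. The regions touched 4925 of 19126 protein-coding genes (25.8%). Most of them, 3631, touched a single gene, 823 touched 2 genes and 47 touched 3 or more.

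The libraries came from 786-O, an established human renal carcinoma cell line, and were made by CUT&Tag, a method that uses antibody-tethered Tn5 transposase to insert sequencing adapters into the chromatin near an epitope. For H4K12la there were 2 libraries of untreated control cells and 2 of cells treated for 48 h with dexamethasone, a synthetic glucocorticoid, at 10 µM. The glucocorticoid receptor (GR) was profiled in 1 library from cells given the same treatment, and no GR library of control cells was used here. All 5 libraries carried 1 batch label, and the labels do not state whether the replicates were grown as separate cultures, so their spread may be technical.

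Histone lactylation is an acyl mark whose donor derives from lactate, so it ties chromatin to glycolytic flux. Like histone acetylation, it is found at promoters and enhancers of active genes. GR is a nuclear receptor that enters the nucleus on binding a glucocorticoid, and there it binds its own DNA element or other DNA-bound factors, to raise the transcription of some genes and lower that of others.

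The height of a peak is a whole number that the authors deposited with it, taken here as the signal at its summit. The peak caller is not given, so that reading is an assumption. Sequencing depth is unknown, so heights of different lists are not on 1 scale. Each library's heights were therefore turned into percentile ranks from 0 to 100 over the same 28987 regions, a region taking its highest peak. A region was called lower when both dexamethasone ranks were below both control ranks, and higher when both were above. Ranks are relative, so a region's rank also moves when other regions move. With 2 libraries against 2, an exact permutation test cannot go below p = 0.333, and the groups compared were named in the choice of regions, so no test was made and every share is a description of these 5 libraries.

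The promoters of 5 genes are shown as examples of the sequence at the regions whose control and dexamethasone ranks stood furthest apart. Regions were ordered by the gap, the lowest rank of the higher group minus the highest rank of the lower group. RPL21, RNF6, PTGES3 and SRSF5 are from the 10 regions with the widest gap downward, and OR52W1 is from the 10 with the widest gap upward. Each sequence runs from 250 bases before to 50 bases after the gene's start, is written 5′ to 3′ on the gene's strand and comes from RefSeq for GRCh38.p14. Capitals mark matches, on either strand, to 8 short motifs: TATAAA (the TATA box), CCAAT (bound by NF-Y), GGGCGG (the GC box of the Sp and KLF families), CCGGAAG (bound by ETS factors), TGACGTC (CREB and ATF factors), GCGCATG (part of the NRF1 site), CACGTG (the E-box) and TGAGTCA (AP-1). None of these motifs contains another. RPL21 encodes a protein of the large ribosomal subunit, and its promoter lies at chr13:27251308-27251607 on the plus strand. RNF6 encodes a RING-type ubiquitin ligase, with its promoter at chr13:26222322-26222621 on the minus strand. PTGES3 encodes p23, a co-chaperone of HSP90 that helps keep steroid receptors able to bind hormone, with its promoter at chr12:56688235-56688534 on the minus strand. SRSF5 encodes a splicing factor, with its promoter at chr14:69766892-69767191 on the plus strand. OR52W1 encodes an olfactory receptor, with its promoter at chr11:6198974-6199273 on the plus strand.
RPL21: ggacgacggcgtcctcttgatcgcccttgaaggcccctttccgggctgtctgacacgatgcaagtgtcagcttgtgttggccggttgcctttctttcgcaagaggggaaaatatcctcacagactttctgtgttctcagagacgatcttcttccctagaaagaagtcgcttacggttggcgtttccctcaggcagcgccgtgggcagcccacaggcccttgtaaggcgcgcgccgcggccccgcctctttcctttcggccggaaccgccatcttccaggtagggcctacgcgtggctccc
RNF6: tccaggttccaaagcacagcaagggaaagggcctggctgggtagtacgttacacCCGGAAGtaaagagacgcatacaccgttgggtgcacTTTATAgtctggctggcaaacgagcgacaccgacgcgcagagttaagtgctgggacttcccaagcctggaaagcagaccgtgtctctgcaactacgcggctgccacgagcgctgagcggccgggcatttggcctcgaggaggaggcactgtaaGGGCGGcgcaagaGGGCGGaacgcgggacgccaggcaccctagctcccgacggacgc
PTGES3: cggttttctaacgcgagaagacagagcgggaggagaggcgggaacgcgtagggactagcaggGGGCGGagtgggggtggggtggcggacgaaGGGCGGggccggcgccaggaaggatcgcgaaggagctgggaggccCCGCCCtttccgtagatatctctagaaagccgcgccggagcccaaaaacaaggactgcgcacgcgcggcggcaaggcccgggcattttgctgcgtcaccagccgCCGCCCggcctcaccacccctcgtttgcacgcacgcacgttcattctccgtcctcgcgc
SRSF5: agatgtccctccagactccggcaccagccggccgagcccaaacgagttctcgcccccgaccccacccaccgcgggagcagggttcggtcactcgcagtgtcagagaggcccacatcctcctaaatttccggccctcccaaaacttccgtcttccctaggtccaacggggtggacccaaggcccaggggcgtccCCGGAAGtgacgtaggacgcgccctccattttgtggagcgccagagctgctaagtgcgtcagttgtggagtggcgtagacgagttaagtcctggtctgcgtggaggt
OR52W1: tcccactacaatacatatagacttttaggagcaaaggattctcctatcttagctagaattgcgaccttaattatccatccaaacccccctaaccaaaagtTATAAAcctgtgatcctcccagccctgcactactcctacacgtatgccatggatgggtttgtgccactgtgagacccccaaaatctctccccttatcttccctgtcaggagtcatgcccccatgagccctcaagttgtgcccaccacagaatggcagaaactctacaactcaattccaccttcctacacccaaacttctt

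The 4 promoters of regions with a downward gap held 25, 26, 37 and 23 CpG dinucleotides in their 300 bases, in the order printed, while the OR52W1 promoter held 2. G and C made up 60.3%, 62%, 68% and 63.3% of the former and 47% of the latter. RPL21 held none of the 8 motifs, PTGES3 held the GC box, SRSF5 the ETS motif, RNF6 both of these and a TATAAA match, and OR52W1 a TATAAA match. Matches were counted anywhere in the 300 bases, so a TATAAA match need not be a working TATA box. The regions at RPL21, RNF6, PTGES3 and SRSF5 span the whole printed promoter, whereas the OR52W1 region begins at 6199095, after its TATAAA match.

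Across the 4501 gene-start and gene-end regions, 2654 were lower with dexamethasone (59%, 95% exact binomial interval 57.5 to 60.4%), beside 28.4% of all 28987 regions. Another 1035 were higher (23%, 21.8 to 24.3%), beside 44.6% of all regions, and for 812 (18%) the control and dexamethasone ranks overlapped. The median rank was 76.4 and 79.1 in control replicates 1 and 2 and 46.4 in both dexamethasone replicates. The other 24486 regions, away from gene starts and ends, had medians of 44.6 and 44.5 in control libraries against 50.3 and 50.04 with dexamethasone, and 22.8% of them were lower. The medians cover regions at gene starts and gene ends, which are separated below. Intervals here and below cover counting error over regions only, and regions of 1 library are not independent replicates.

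On the deposited heights, the median over the gene regions was 54 and 58 in control (range 9 to 429 and 10 to 542) and 28 in each dexamethasone list (11 to 203 and 12 to 189). Elsewhere the medians were 31 in each control list and 29 in each dexamethasone list. Called on these unscaled heights, 3190 of the gene regions were lower and 474 higher, beside 39.4% and 26% of all regions. Called on percentiles of the whole lists, 2577 were lower and 1091 higher, beside 26.4% and 47.6%. Without dexamethasone replicate 2, the shortest list, 6522 regions at genes held a peak in all remaining lists, of which 4260 were lower and 1783 higher. There a call needed only the remaining dexamethasone rank to lie below or above both control ranks. Shares over all such regions were not computed, so these counts cannot be set beside those above.

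Regions at genes made up 41.6% and 47% of the regions ranked in the top 10% in the control libraries (1211 and 1346 regions), and 13.2% and 11.7% in the dexamethasone libraries (381 and 333 regions). In the lowest 10% of ranks their share was 5.87% and 5.14% in control and 15.1% and 16.2% with dexamethasone. The control shares climbed with rank. In the dexamethasone libraries, regions at genes held between 11.7% and 19% of each 10% step of rank, close to their 15.5% of all regions.

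The order of the gene regions within a library was shared by replicates and much less by the groups. Across the 4501 regions, Spearman's rho was 0.94 between the control libraries, 0.82 between the dexamethasone libraries and 0.12 to 0.23 between a control and a dexamethasone library. For the 24486 regions elsewhere it was 0.92, 0.85 and 0.46 to 0.49. The 4501 regions pool gene starts and gene ends, which are separated below. Between a control and a dexamethasone library, rho was 0.35 to 0.36 within gene starts and 0.61 to 0.65 within gene ends only. Both lay above the pooled value, and that of gene ends also lay above the value elsewhere. These are correlations across regions of the same libraries, which share depth and mappability, and they are given as a description.

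Strand split the regions sharply. The strand of 15101 genes (79%) was known from the RefSeq promoter table, which placed 2422 regions at the start of at least 1 such gene and 1227 at the ends only, where transcription finishes. For the remaining 852 regions the strand of at least 1 touched gene was not in the table and none lay at a known start. At gene starts, 2011 of 2422 regions were lower (83%, 81.5 to 84.5%) and 183 were higher (7.56%). At gene ends only, 207 of 1227 were lower (16.9%, 14.8 to 19.1%) and 618 were higher (50.4%, 47.5 to 53.2%). Of the 24486 regions elsewhere, 22.8% were lower and 48.6% higher, so the higher share at gene ends was near that elsewhere. The 852 regions of unknown strand lay between, with 51.2% lower and 27.5% higher.

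Median ranks at gene starts were 86.2 and 88.6 in control libraries against 38.4 and 34.4 with dexamethasone. At gene ends only they were 56.3 and 54.9 against 63.6 and 63.3, and the interquartile ranges of the treatments overlapped. Start regions held 40.3% and 45.7% of their number in the top 10% of ranks in control, against 3.59% and 2.85% with dexamethasone, while end regions went from 5.3% and 3.67% to 15.6% and 14.1%. The plot of ranks by library shows the same medians with their quartiles. On unscaled heights, 88% of start regions and 40.8% of end regions were lower, beside 39.4% of all 28987 regions. By rank, 16.9% of end regions were lower, beside 28.4% of all regions. The low share at gene ends thus depended on ranking, whereas the high share at gene starts was met on every scale tried.

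**Figure D1:**
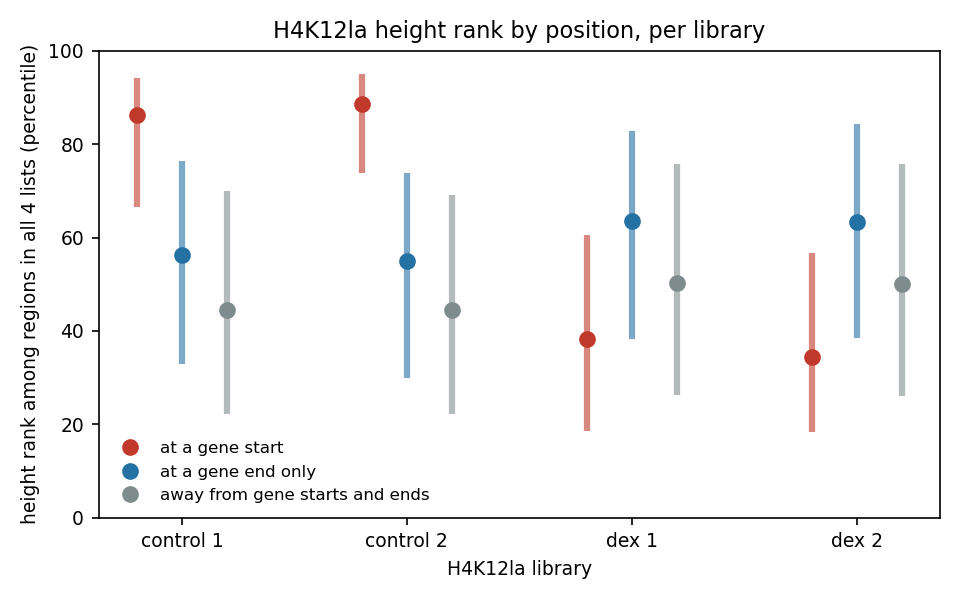
Height rank (percentile among the 28987 regions in all 4 lists) in each H4K12la library for regions at gene starts (n = 2422), at gene ends only (n = 1227) and elsewhere (n = 24486); points are medians and bars run from the first to the third quartile. Start regions have medians of 86.2 and 88.6 in control and 38.4 and 34.4 with dexamethasone, while the medians of the other classes lie between 44.5 and 63.6 in all libraries.

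High-ranking regions have more room to fall than low-ranking ones, so the classes were compared at matched control rank. Among regions with a mean control rank from 90 to 100, 98.1% of start regions (1001 of 1020) were lower, against 57.4% of end regions (31 of 54) and 73.9% of regions elsewhere. From 80 to 90 the shares were 91.2%, 21% and 51.9%. From 50 to 60 they were 62.5%, 16.1% and 20.2%. From 0 to 10 they were 7.5%, 4.41% and 3.2%, and there the intervals overlapped. From a control rank of 30 upward, the intervals for start regions lay above those for regions elsewhere, and from 70 upward those for end regions lay below.

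**Figure D2:**
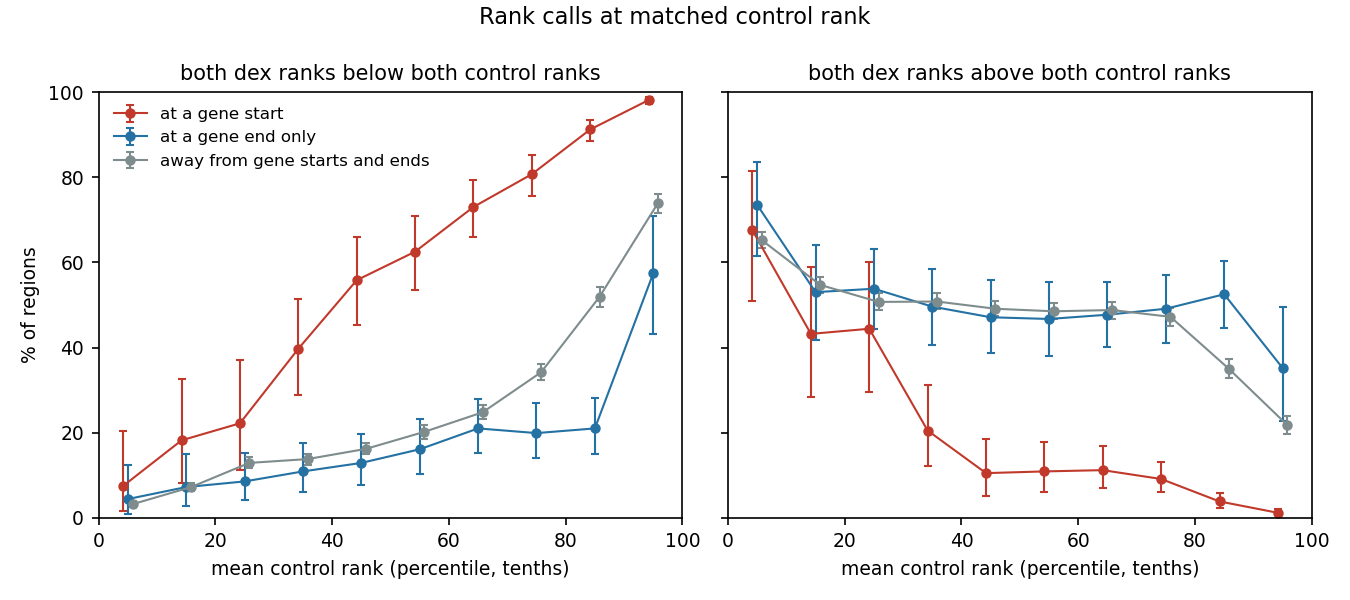
Share of regions called lower (left) and higher (right) with dexamethasone, in % of regions, against mean control rank in steps of 10 percentiles, for regions at gene starts, at gene ends only and elsewhere; bars are 95% exact binomial intervals. From 90 to 100, 98.1% of start regions, 57.4% of end regions and 73.9% of the others are lower.

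**Figure D3:**
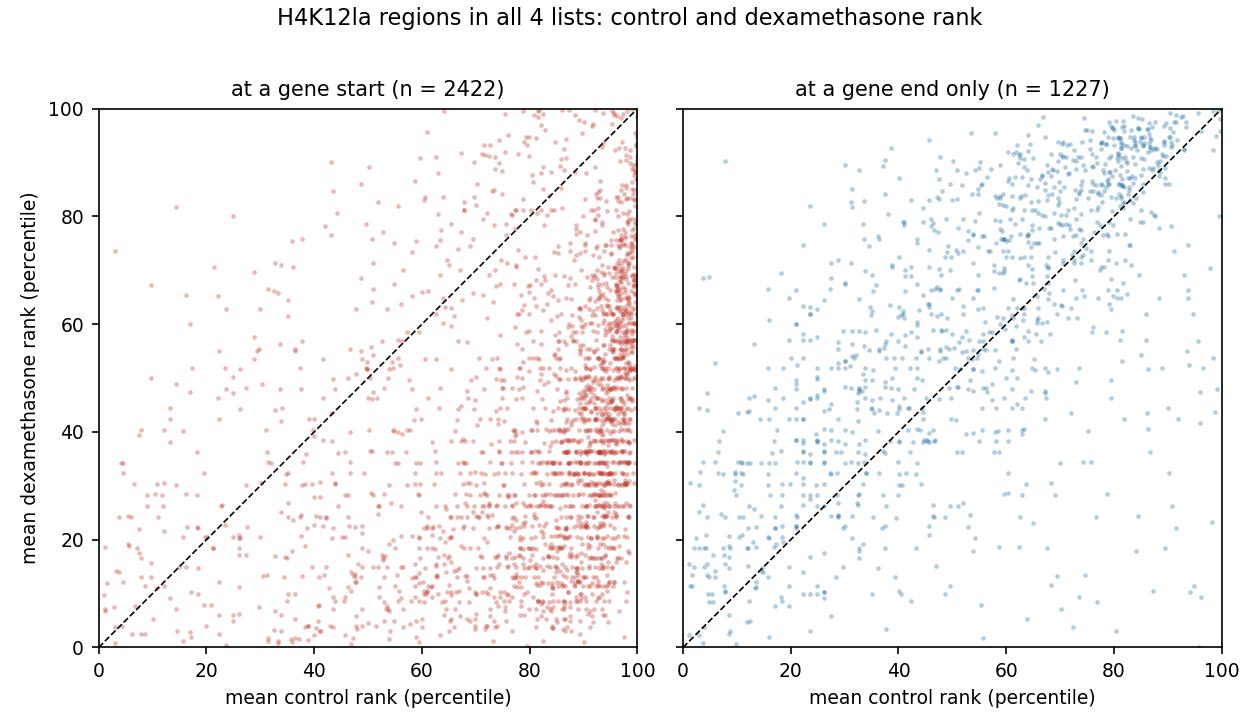
Mean dexamethasone rank against mean control rank (percentiles) for each region at a gene start (left, n = 2422) and at a gene end only (right, n = 1227); the dashed line marks equal rank. Start regions gather at high control rank below the line, where 83% are called lower. End regions lie along the line, with 50.4% called higher, beside 48.6% of regions elsewhere.

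Where a region lay over starts on both strands, as at bidirectional promoters, 291 of 301 were lower (96.7%), with a median rank of 92.6 in control and 40.5 with dexamethasone. With starts on 1 strand, 81.1% of 2121 were lower. A start that fell inside the region itself went with 87% lower (n = 2052), and a start within 1 kb but outside the region with 61.1% (n = 370). Outside the windows, 708 regions held the listed start of some other gene of the promoter table, and 63.7% of them (451) were lower, against 21.5% of the 23778 without. At gene ends, 24 regions also held such a start and 10 of these were lower (41.7%), against 16.4% of the other 1203. End regions whose control replicate 1 summit lay inside the gene (583) or past its end (644) were much alike, with 14.6% and 18.9% lower.

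Distance to the gene's start or end also graded the regions. Of the 2929 that overlapped the position itself, 73.6% were lower, against 34.9% of the 940 within 500 bp and 25.1% of the 334 from 501 to 750 bp. Just inside the 1 kb limit, from 751 to 1000 bp, 298 regions had median ranks of 50.8, 51.1, 53.8 and 53.5 in control 1, control 2, dexamethasone 1 and dexamethasone 2, and 28.5% were lower. Just outside, from 1001 to 1250 bp, 262 regions had 57.9, 56.7, 63.6 and 58.4, and 21.8% were lower. The requirement of a peak in all 4 lists also sets the heights: regions at genes held by 3 lists numbered 3507, and their median heights were 41, 46.5, 22 and 23 in the same order, below the 54, 58, 28 and 28 of the regions in all lists.

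Peaks at gene starts were also shorter in the dexamethasone lists. The median peak length at gene starts was 1264 and 1380 bp in control lists and 832 and 778 bp in dexamethasone lists. At gene ends only it was 1171 and 1077 bp against 981 and 961 bp, and elsewhere 956 and 918 bp against 867 and 847 bp. Over the 2052 starts that lay inside a region, the summit was a median of 210 and 206 bp from the start in control and 228 and 244 bp with dexamethasone, and 58.2% and 60.2% against 53.6% and 50.8% of summits were within 250 bp. Between replicates the summit of a gene region shifted by a median of 138 bp in control and 202 bp in dexamethasone lists, and between the groups by 188 to 221 bp, so the shift between groups was about that between the dexamethasone replicates.

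The GR list, which had no part in choosing the regions, overlapped 1681 of the 4501 (37.3%, 35.9 to 38.8%), beside 7.59% of all 28987 regions and 2.12% of those elsewhere. Row numbers in the GR list ran to 15183, and 53.1% of that range was present. Why the other rows are absent is not stated, so the GR shares here and below rest on the rows present. GR peaks were concentrated at gene starts, where 1428 of 2422 regions held one (59%, 57 to 60.9%), against 18 of 1227 at gene ends only (1.47%, 0.872 to 2.31%). Of the regions lower with dexamethasone, 1591 of 2654 held a GR peak (59.9%). Of the higher regions, 9 of 1035 did (0.87%), and of those with overlapping ranks, 81 of 812 (9.98%). Within starts the order was the same, at 67.6% of lower, 3.83% of higher and 26.8% of overlapping regions.

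Start regions with high control heights held GR peaks more often, so the share was also taken within quartiles of mean control rank. From the lowest to the highest quartile, 41.1%, 51.4%, 64.9% and 79.2% of lower start regions had a GR peak, against 13.6%, 16.1%, 23.8% and 29.4% of the other start regions. The intervals of lower and other regions did not overlap in any quartile, although the highest quartile held only 17 other regions. By quartile of region width, the share among all gene regions was 35%, 46.8%, 42.9% and 24.7% from narrowest to widest. Within each quartile, lower start regions thus held a GR peak more often than the other start regions. The quartiles are wide, the lowest running from 0.704 to 51.9, and control rank enters the lower call. Control rank was therefore not held equal between the groups compared. The GR list is a single library of treated cells, set against no control antibody list here, so the share has no spread over samples, and how many of its peaks at promoters are receptor binding was not tested.

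**Figure D4:**
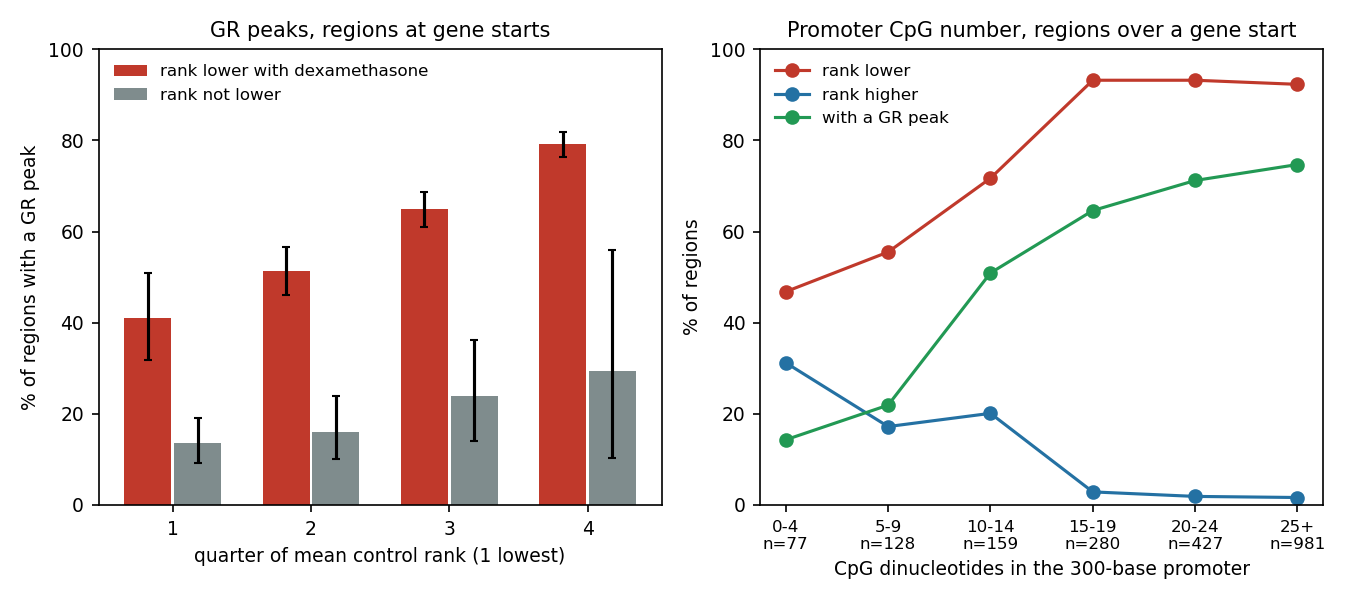
Left: share of start regions with a GR peak, in %, by quartile of mean control rank, for regions lower and not lower with dexamethasone (bars are 95% exact binomial intervals). Right: share of regions over a gene start that were lower, were higher or held a GR peak, in %, by the number of CpG dinucleotides in the 300-base promoter; from 15 CpG upward over 92% are lower.

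Promoter sequence separated the start regions as well, and neither ranks nor GR peaks enter it. A promoter was in the RefSeq table for 2052 regions with the start inside. The median promoter held 25 CpG in the 1785 lower regions, 11 in the 110 higher regions and 20 in the 157 with overlapping ranks, beside 22 over all 15099 protein-coding promoters of the table. At least 15 CpG were found in 87.6% of lower, 29.1% of higher and 58.6% of overlapping promoters, beside 66% of all. Over the 2052 regions together the median was 24 CpG, and 82.3% had at least 15. With 0 to 4 CpG, 46.8% of 77 regions were lower and 31.2% higher. From 15 to 19 CpG, 93.2% of 280 were lower and 2.86% higher, and at 25 or more, 92.3% of 981 were lower and 1.63% higher. GR peaks followed the same gradient, from 14.3% of the regions with 0 to 4 CpG to 74.7% of those with 25 or more. Median control rank was 69.6 with 0 to 4 CpG and between 85.8 and 91.1 from 10 CpG upward, so control rank moved with CpG number, and their separate parts in the calls were not tested.

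The ETS motif CCGGAAG, on either strand, was in 23.5% of promoters of lower regions and in 1 of 110 of higher regions (0.909%), beside 14.4% of all promoters. The GC box GGGCGG was in 70.9% of lower and 48.2% of higher promoters, beside 58.9% of all, and the CCAAT motif in 39.7% and 26.4%, beside 36%. The TATAAA motif ran the other way, in 4.15% of lower and 13.6% of higher promoters, beside 9.71%. TGACGTC was in 5.55%, 1.82% and 4.58% of lower, higher and all promoters, GCGCATG in 8.85%, 1.82% and 5.8%, CACGTG in 10.8%, 12.7% and 8.77%, and TGAGTCA in 2.91%, 2.73% and 3.66%. Over all 2052 regions with the start inside, CCGGAAG was in 21.2%, GGGCGG in 68.9%, CCAAT in 38.1% and TATAAA in 4.92%. TGACGTC was there in 4.97%, GCGCATG in 8.48%, CACGTG in 10.4% and TGAGTCA in 3.02%. Lower regions made up 1785 of the 2052, and their shares lay near these. Among lower regions, CCAAT was in 43.6% of the 1283 promoters with a GR peak and 29.7% of the 502 without, and GGGCGG in 74% and 62.9%. A letter match is not a bound site. Some of these motifs contain a CpG themselves, and the median CpG number was 25 in lower and 11 in higher promoters. Motif shares were not compared at equal CpG number. Whether they differ beyond what CpG number brings was therefore not tested.

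The 10 regions whose lowest rank over the 4 libraries was highest were of mixed kind. The region over the start of EIF3B, a subunit of the eIF3 translation initiation complex, also touched SNX8, an endosomal sorting nexin, and spanned 2353655 to 2354843 on chromosome 7. Its heights were 429 and 459 in the control lists against 87 and 74 in the dexamethasone lists, with ranks of 99.9 and 99.9 against 99.1 and 98.3. The region at CCDC200 on chromosome 17 had heights of 339 and 340 against 171 and 136. Both stayed in the top 2% of regions in every library, and both were lower by rank, though by at most 1.26 percentiles in the mean.

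At the end of DUSP7, which encodes a phosphatase of ERK kinases, heights were 279 and 261 in the control lists against 70 and 73 with dexamethasone, also lower by rank. The end of ASAP2, an activator of Arf GTPase hydrolysis, had 225 and 206 against 128 and 117, and the end of DSTN and RRBP1, an actin-severing factor and a ribosome-binding protein of the endoplasmic reticulum, had 181 and 171 against 115 and 105. ASAP2, DSTN with RRBP1, UPK3BL2, LOC124902171, LOC107987067 and ASAP1 were called higher by rank by no more than 1.56 percentiles, and for all 6 the mean of the unscaled heights was lower with dexamethasone. LOC107987020, LOC107987067 and LOC124902171 lie on chromosome 9 between 62799168 and 65822102, near the centromere, and UPK3BL2 is among near-identical copies on chromosome 7, so the authors' alignment could have placed reads of other copies there.

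Among the regions with the widest gap downward, the RPL21 start (chromosome 13, 27251061 to 27252249) had heights of 155 and 154 in the control lists against 13 and 16 in the dexamethasone lists. Its ranks were 97.6 and 97.4 against 0.592 and 3.46, and no GR peak overlapped it. The end of ACSM6, of the medium-chain acyl-CoA synthetase family, fell from 137 and 123 to 12 and 12 (chromosome 10, 95229169 to 95231215), again without a GR peak. It was among the 207 regions at gene ends only that were called lower, against 618 called higher.

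RNF6 had 81 and 95 against 11 and 15, PTGES3 had 92 and 93 against 16 and 16, and SRSF5 had 156 and 173 against 17 and 19. All 3 regions lay over the printed promoters and held a GR peak, which for PTGES3 spanned 56688083 to 56688767 and so covered that whole promoter. The start of ZFAND5, a zinc-finger protein that acts on the proteasome, had 112 and 122 against 18 and 14, and the start shared by CCT6B, a chaperonin subunit of the testis, and ZNF830 had 139 and 140 against 15 and 19. HOXB2, a homeobox gene, had 135 and 155 against 17 and 18, N4BP2L2 had 119 and 127 against 16 and 18, and LOC128966704 had 104 and 129 against 15 and 16. In each of these 10 regions the control heights were at least 81 and the dexamethasone heights at most 19, an absence of overlap that the choice by gap fixes, and 3 of the 10 were on chromosome 13. The lowest heights of any peak in the dexamethasone lists were 11 and 12. ACSM6, RPL21 and RNF6 thus stood at or near the floor of those lists.

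The regions with the widest gap upward had low control heights and moderate dexamethasone heights. The end of SLC41A3, of the magnesium transporter family, went from 18 and 14 to 51 and 47 (chromosome 3, 126007346 to 126008839), with ranks of 12.1 and 3.45 against 91.9 and 88.8. The end of MARCHF8, a membrane-bound ubiquitin ligase, went from 14 and 14 to 33 and 37, and that of RASGEF1C, with a Ras exchange-factor domain, from 13 and 16 to 36 and 34. RBM19, an RNA-binding protein of ribosome assembly, had 26 and 26 against 48 and 46 at its end. These regions were chosen for their gap in rank, so that the groups did not overlap follows from the choice.

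OR52W1, the olfactory receptor gene whose start and end were both touched, had 19 and 19 against 37 and 48. SLC22A13, an organic anion transporter gene, had 22 and 23 against 47 and 42, and LOC124901141 13 and 14 against 36 and 38. USP17L20, USP17L15 and USP17L18 belong to a tandem array of near-identical deubiquitinase genes on chromosome 4, with 19 and 21 against 45 and 46, 18 and 18 against 41 and 36, and 18 and 24 against 50 and 43. Reads of those copies cannot be assigned with certainty. None of the 10 regions with the widest gap upward held a GR peak, against 6 of the 10 with the widest gap downward.

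**Figure D5:**
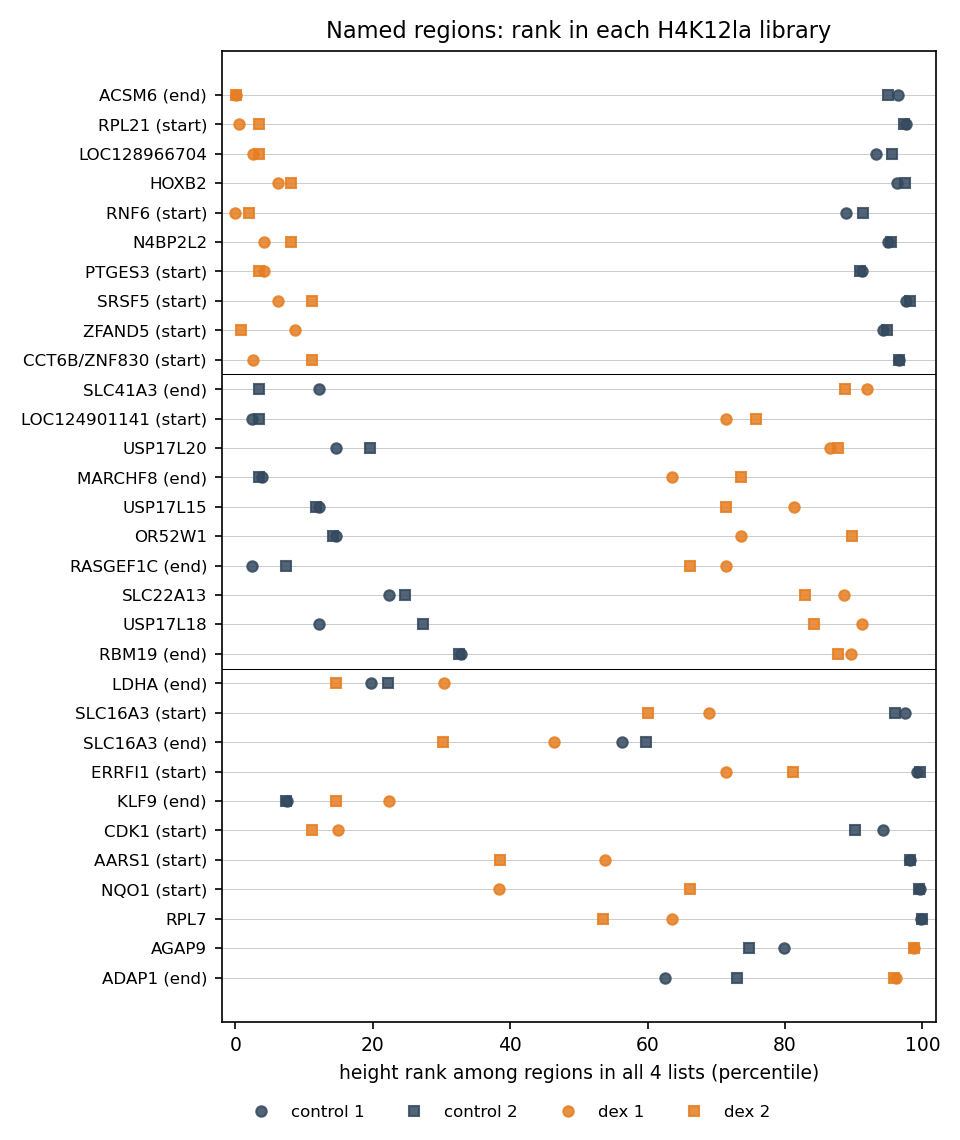
Height rank (percentile among regions in all 4 lists) in each H4K12la library for the 10 regions with the widest gap downward (top block), the 10 with the widest gap upward (middle block) and 11 regions of genes set by name (bottom block). The upper blocks were chosen for not overlapping; in the bottom block the LDHA end overlaps, at 19.7 and 22.2 in control and 30.3 and 14.6 with dexamethasone, while the RPL21 start runs from 97.6 and 97.4 to 0.592 and 3.46, and the SLC41A3 end from 12.1 and 3.45 to 91.9 and 88.8.

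Gene groups were described next, and for each at most the 4 regions with the widest gap in either direction were named. That control and dexamethasone ranks do not overlap in those regions follows from the choice. ERRFI1, KLF9, NQO1, RPL7, AGAP9, ADAP1, the LDHA end and the SLC16A3 end were added as genes set by name, whatever their gap. Each count stands against all 4501 gene regions, of which 59% were lower, 23% higher and 37.3% held a GR peak. These shares pool gene starts, with 83% lower and 59% with a GR peak, and gene ends only, with 16.9% and 1.47%. The lists were not compared at an equal mix of starts and ends. Whether a list differs from all gene regions beyond that mix was therefore not tested. Genes of protein synthesis and turnover had a region in all lists for 32% to 43.8% of each list's genes, beside 25.8% of all protein-coding genes. Of 37 aminoacyl-tRNA synthetase genes, which load tRNAs with amino acids, 13 had a region in all lists. Their 14 regions split into 12 lower (85.7%), 1 higher and 1 overlapping, and 10 held a GR peak (71.4%). WARS2, the mitochondrial tryptophanyl enzyme, had heights of 158 and 159 against 23 and 25, and SARS1, the cytosolic seryl enzyme, 90 and 89 against 21 and 24. The shared start of HARS1 and HARS2 had 68 and 64 against 23 and 19, and LARS2 65 and 92 against 22 and 21. The 16 proteasome regions were lower in 10 cases (62.5%, near the 59%) and higher in 2, with PSMD14, a deubiquitinase of the lid, at 114 and 103 against 18 and 16. PSMA5, a core subunit, had 111 and 104 against 21 and 20.

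Cytosolic ribosomal protein genes had 27 regions at 24 of 75 genes, 17 lower, 2 higher and 8 overlapping, near the 59% lower of all gene regions. RPL9 had 144 and 130 against 20 and 21 in a region that also touched LIAS. RPL10A had 80 and 109 against 20 and 20 in a region that also touched FANCE. RPL7, in a region that also touched RDH10, had 334 and 368 against 33 and 30. Its ranks fell from 99.8 and 99.9 in control to 63.6 and 53.5 with dexamethasone. Of 13 regions at stress and unfolded-protein genes, 9 were lower (69.2%, beside 59% of all gene regions), 3 higher and 1 overlapping, and 9 held a GR peak (69.2%, beside 37.3%). HSPA5, the chaperone BiP of the endoplasmic reticulum, had 128 and 133 against 20 and 27, and EIF2AK3, the PERK kinase, 152 and 129 against 25 and 21.

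Regions at cell cycle and replication genes were lower in 12 of 17 cases (70.6%, beside 59% of all gene regions), higher in 2 and overlapping in 3, with GR peaks at 11 (64.7%, beside 37.3%), and the median rank went from 76.7 to 34.4. CDK4, a kinase of the G1 phase, had heights of 95 and 109 against 20 and 16, and CDK1, the kinase that drives mitosis, 112 and 89 against 20 and 19. PCNA, the sliding clamp of DNA polymerase, had 59 and 48 against 20 and 21 in a region that also touched CDS2. CDC25C, the phosphatase that activates CDK1, had 201 and 226 against 21 and 28 in a region that also touched FAM53C.

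All 5 regions at AP-1 and immediate early genes were lower, with a median rank of 76.1 in control and 11.4 with dexamethasone, and 4 held a GR peak. JUN, an AP-1 subunit, had heights of 111 and 114 against 19 and 19, and EGR1, a zinc-finger factor induced by growth signals, 70 and 112 against 22 and 21. DUSP6 and DUSP5, phosphatases that limit ERK signalling, had 34 and 46 against 16 and 16, and 53 and 54 against 23 and 20. With 5 regions of 25 genes, the group is too small to be set apart from the 59% lower of all gene regions.

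Genes known to be induced by glucocorticoids had 8 regions at 7 of 44 genes, 5 lower (62.5%, near the 59% of all gene regions), 2 higher and 1 overlapping, and 4 with a GR peak. DDIT4, an inhibitor of mTORC1 signalling, had heights of 125 and 112 against 17 and 21. ERRFI1, an inhibitor of the EGF receptor, had 215 and 262 against 36 and 41, with ranks of 99.2 and 99.6 against 71.4 and 81.2. PDK4, which restrains pyruvate dehydrogenase, had 33 and 42 against 17 and 18, and SLC19A2, a thiamine transporter, 64 and 81 against 26 and 24, each with a GR peak at its start. The end of CEBPB, a bZIP transcription factor, had 74 and 62 against 24 and 17. The end of KLF9, a Krüppel-like repressor, had 16 and 16 against 22 and 20 and was called higher.

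Glycolysis and lactate genes had 9 regions at 8 of 26 genes, 7 lower (77.8%, beside 59% of all gene regions) and 2 overlapping. SLC16A3, the lactate exporter MCT4, had a region at each end, and both were lower: the start had heights of 154 and 134 against 35 and 32 and held a GR peak, and the end had 37 and 39 against 28 and 24 and held none. PFKM, the muscle phosphofructokinase, had a start region that also touched SENP1, at 163 and 182 against 17 and 27. MPC2, of the mitochondrial pyruvate carrier, had 88 and 128 against 24 and 25, and the region at the end of TPI1, which lies at the start of SPSB2, had 42 and 69 against 26 and 25. The region at the end of LDHA, the lactate dehydrogenase subunit, had 21 and 22 against 24 and 20, with overlapping ranks.

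Among 22 genes for enzymes that add or remove lactylation, or make its donor, 8 had a region, with 6 of 9 regions lower (66.7%, beside 59% of all gene regions), 1 higher and 2 overlapping, and 2 with a GR peak (22.2%, beside 37.3%). AARS1, an alanyl-tRNA synthetase reported to act as a lactyltransferase, had heights of 169 and 173 against 30 and 26. Its region also touched DDX19B. KAT5, the acetyltransferase TIP60, had 153 and 150 against 31 and 25. The regions at AARS1 and KAT5 held the GR peaks of the group. HDAC2, a class I deacetylase, had 139 and 155 against 30 and 31, and SUCLG2, a succinyl-CoA synthetase subunit, 162 and 133 against 28 and 34. All 4 left the top 10% of ranks, and their dexamethasone ranks lay between 34.4 and 66.2.

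Redox genes under NRF2 had 11 regions, 7 lower (63.6%, near the 59% of all gene regions), 2 higher and 2 overlapping. NQO1, a quinone reductase, had heights of 274 and 244 against 26 and 34. Its ranks fell from 99.7 and 99.5 in control to 38.4 and 66.2 with dexamethasone. PRDX1, a peroxiredoxin, had heights of 102 and 101 against 23 and 20, TXN, thioredoxin, 101 and 113 against 28 and 21, and ME1, malic enzyme, 108 and 129 against 30 and 27, and each held a GR peak. FTL, the ferritin light chain, had a start region that also touched BAX, with 131 and 142 against 28 and 27 and no GR peak.

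Hypoxia targets and the VHL pathway, central to this carcinoma type, had 8 regions, of which 3 were lower (37.5%, beside 59% of all gene regions), 1 higher and 4 overlapping. P4HA2, a collagen prolyl hydroxylase, had heights of 85 and 77 against 33 and 30, and the end of CA9, carbonic anhydrase IX, in a region that also touched TPM2, had 22 and 18 against 29 and 26 and was higher. No such region lay at VEGFA or at CCND1. Of 8 regions at a list of renal carcinoma suppressor genes that also holds MTOR, 3 were lower (37.5%), 2 higher and 3 overlapping. FLCN, folliculin, had 156 and 184 against 33 and 24, and MTOR, the growth kinase, 49 and 78 against 20 and 22. BAP1, a nuclear deubiquitinase, had 56 and 45 against 49 and 50 in a region that also touched DNAH1. That region was higher by rank, which turned to a mean difference of -1.0 on unscaled heights.

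Developmental genes had 5 regions, 3 lower (60%, near the 59%), 1 higher and 1 overlapping, and none with a GR peak. PAX8, a kidney lineage factor, had heights of 140 and 119 against 27 and 18, and GATA3 71 and 82 against 26 and 29. The AGAP9 region rose in rank, to 98.7 and 98.8 with heights of 59 and 52 against 80 and 82. The region at the end of ADAP1, which also touched GET4, rose to 96.2 and 95.8 with heights of 41 and 50 against 61 and 59. AGAP9 has near-identical copies on chromosome 10, so its reads are uncertain.

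Markers of other identities were looked at in the same way. Kidney tubule genes had regions at 4 of 24, with 1 lower, 2 higher and 2 overlapping among 5 regions, and FXYD2, a regulator of the sodium pump, had heights of 85 and 72 against 25 and 35. Blood and endothelial genes had regions at 6 of 26, with 3 lower, 1 higher and 2 overlapping, and a median rank difference of -7.47. The end of KDR, the VEGF receptor, had 37 and 36 against 15 and 14, whereas CLDN5, an endothelial tight junction protein, had 40 and 33 against 43 and 48 and was higher. The shares of genes with a region were 16.7% and 23.1%, beside 25.8% of all protein-coding genes, and a peak at a gene says nothing of its transcript.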

How the data were processed

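Peaks of 5 CUT&Tag libraries were used: 2 H4K12la control, 2 H4K12la dexamethasone and 1 GR. The submitters' processing notes name fastp 0.19.6, Bowtie2 and deepTools as tools and GRCh38 (hg38) as the build, with no peak caller given in the sources used here. A list per library was deposited by the authors, with positions, lengths, summits and, for H4K12la, a whole number taken as the signal at the summit. Lists held 129848, 115182 (control), 82382, 68980 (dexamethasone) and 8065 (GR) peaks. Total reads are not given, so depth is unknown.

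Peaks off chromosomes 1 to 22 (2.31 to 4.79% of a list) were left out. Gene positions, promoters and strand came from RefSeq tables of GRCh38.p14. Merging, percentile ranks (ties averaged), exact Clopper-Pearson intervals (95%) and motif searches were run with scipy 1.17.1, pandas 2.3.3 and numpy 2.4.6 under Python 3.11.15, and tested on simulated data. Figures used matplotlib 3.10.9. Named regions are the 10 with the highest lowest rank, the 10 widest falls and rises, up to 4 per gene list (15 lists), and 12 genes set by name; some are not reported here. Members and lists were chosen with earlier results of these data known. Alternatives were other windows, merging, height minima, rank bases, region heights, a replicate block, leaving out each library, GR overlap rules, and, chosen after seeing the data, equal peak numbers and the split by gene start and end.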

Additional observations from a re-analysis of the deposited data

How the results depend on the processing

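Read depth is unknown, and with 2 libraries a group no call has a test. The direction at gene starts held where it was computed (other rank bases, equal peak numbers and leaving out each library), with 82.4% to 88% of regions lower (88% on unscaled heights, 85.2% with the 66376 highest peaks of each list). At gene ends only, 13.9% were lower by whole-list percentile, beside 26.4% of all regions, and 40.8% on unscaled heights, beside 39.4%. On heights over their median 26.9% were lower, and the share over all regions was not computed. Higher regions numbered 1683 with a 2500 bp window and 474 on unscaled heights. The difference in median rank was -31.33, and -20.89 by whole-list percentile and -36.70 with equal peak numbers. GR overlap was 35%, 46.8%, 42.9% and 24.7% by width quartile. Leaving out each library in turn gave 4526 to 6522 regions, 2830 to 4260 lower and 1211 to 1783 higher. The median rank difference was then -33.80 to -30.17, and 84.5% to 86.5% of starts and 21.6% to 26.9% of ends were lower. The most regions came without dexamethasone replicate 2, where fewer lists have to hold a region. With a library left out a call rests on fewer ranks, and shares over all such regions were not computed. Replicate numbers are shared by the groups without a stated link (correlation of deviations -0.054), and with the number as a replicate block 2738 regions were lower and 1148 higher. Equal peak numbers and the start and end split were chosen after seeing the data. Over 92 named regions and 640 comparisons, 14 changed sign, of which 2 were the LDHA end, which was not called (1.53, and -1.35 without control replicate 1 and -4.78 without dexamethasone replicate 1). The others were, on unscaled heights ASAP2 (-93.00), LOC107987067 (-8.50), DSTN/RRBP1 (-66.00), LOC124902171 (-35.50), UPK3BL2 (-52.00), ASAP1 (-81.50) and BAP1 (-1.0), and on heights over their median ASAP2 (-2.21), DSTN/RRBP1 (-1.46), LOC124902171 (-0.44), UPK3BL2 (-1.0) and ASAP1 (-2.06). The causes were not tested.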

Other observations

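The fall at genes was uneven over chromosomes. Chromosome 13 had 25 gene regions, 7.4 per 100 protein-coding genes, with a median rank of 81.1 in control and 10.2 with dexamethasone, and 20 of the 25 were lower (80%). Its regions away from genes ranked 28.5 and 23.95, so they too were low. Chromosome 22 had 128 gene regions, of which 50 were lower (39.1%) and 52 higher (40.6%), with median ranks of 70.2 and 57.9. Chromosome 9 (45.6% lower, 35.1% higher) and chromosome 16 (47.1% and 31.7%) lay nearest to it, and on chromosome 12 72.3% were lower.

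Of the 4501 gene regions, 3723 (82.7%) had the peaks of all 4 lists themselves inside a window around a gene's start or end, and 477 genes were touched at both. Regions with several peaks of a list merged into them were commoner among the higher (15.5% and 13.8% in control, 8.5% and 7.63% in dexamethasone lists) than among the lower (8.63%, 3.17%, 2.26% and 2.41%), and the higher regions were also wider, at a median of 1884 bp against 1573 bp. In the lower regions, summits of the control lists lay a median of 95 bp apart, against 247 bp in the higher regions. Over gene starts, 61.2% and 62.3% of control summits of lower regions were within 250 bp of the start, against 26.4% and 33.6% in higher regions.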
